A study of Homo sapiens with 9 samples.

Results

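The cholesterol synthesis and SREBP genes were 31 genes chosen by symbol: 19 enzymes of sterol synthesis and its isoprenoid branch point, 6 genes that control or respond to the sterol sensor, and 6 enzymes of fatty acid synthesis and desaturation. All 31 were found among the 58096 gene identifiers of the deposited count tables, and 30 passed the filter on low counts that left 16072 genes for testing. The exception was CYP51A1, described below. The genes were measured in ALL-SIL, a human T-cell acute lymphoblastic leukaemia line, after electroporation with siRNA s46 against TLX1, siRNA s47 against TLX1, or a scrambled siRNA that served as non-targeting control. TLX1 is a homeobox transcription factor that is switched on abnormally in a subset of these leukaemias. Each group had 3 total RNA libraries taken 24 h after treatment, and a dose of 400 nM is given for the scrambled siRNA alone. All 9 libraries came from the same cell line and carried an siRNA, and untreated cells were not analysed here.

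Cells make cholesterol from acetyl-CoA through mevalonate, farnesyl pyrophosphate, squalene and lanosterol. When sterols in the endoplasmic reticulum are low, SCAP carries the SREBP precursors to the Golgi, where they are cut to release the transcription factors that switch on most of these genes. When sterols are plentiful, INSIG proteins hold SCAP and SREBP back. Growing leukaemia cells, like other dividing cells, use the pathway for membranes and for the prenyl groups of small GTPases.

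TLX1 RNA itself was reduced. It stood at 63.7, 87.3 and 78.6 CPM (the usual count scaled to library size, here after TMM scaling) in the s46 libraries, 63.5, 73.7 and 75.0 CPM in the s47 libraries, and 198, 188 and 171 CPM in the scrambled libraries. The groups did not overlap, and TLX1 fell by 1.34 on the log2 scale with both siRNAs against scrambled (SE 0.112, edgeR adjusted p = 0.000394). Depth ran between 21134650 and 33393740 sense-strand gene reads per library. Scrambled replicate 1 stood apart from the other 8 libraries: 14.4% of its reads mapped to several places, against 6.36% to 7.34%, and 39.9% fell in genes, against 52.7% to 59.9%. The 10 T-lineage markers, TLX1 among them, summed to 1604 to 1858 CPM in the TLX1 siRNA libraries and 1656 to 1858 CPM in the scrambled ones, and all were detected. Their sums hide opposite signs. The log2 fold changes were 0.71 for CD2, 0.37 for CD3D, -0.50 for CD7 and -0.43 for CD3E (edgeR adjusted p = 0.279, 0.208, 0.1995 and 0.241). CD3E stood at 192 CPM in scrambled replicate 1 and at 98.2 and 107 CPM in the other scrambled libraries. B-cell markers summed to 10.4 to 14.7 CPM in the TLX1 siRNA libraries and 11.05 to 13.3 CPM in the scrambled ones. Hepatocyte markers, chosen because the liver is the main organ of sterol synthesis, summed to at most 0.366 CPM in the TLX1 siRNA libraries and 0.582 CPM in the scrambled ones, and 1 of the 5 was at 0 in every library. Myeloid markers reached at most 0.524 CPM with TLX1 siRNA and 0.627 CPM with scrambled siRNA, and erythroid markers at most 0.174 CPM and 0.179 CPM with 2 of 5 at 0 throughout.

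No cholesterol or SREBP gene was called in any of the 4 comparisons. With both TLX1 siRNAs against scrambled, 0 of 30 tested genes were higher at an edgeR adjusted p under 0.05, where 0.411% of all tested genes were, and 0 were lower, where 0.156% of all tested genes were. The counts were also 0 for s46 against scrambled, where 0.149% of all tested genes were higher and 0.0249% lower, and 0 for s47 against scrambled, where 0.243% were higher and 0.0871% lower. For s46 against s47 no gene of any kind was called, 0% higher and 0% lower. At an unadjusted edgeR p under 0.05, both siRNAs against scrambled gave 0 of 30 genes higher, beside 7.27% of all tested genes, and 3 lower, beside 10.5%. DESeq2 called 1 of them lower, SREBF2, in that comparison, where it called 1.51% of the genes it tested lower. The median log2 fold change of the 30 genes was -0.031, against -0.027 for all 16072 genes, with 13 genes above 0 and 17 below and a range from -0.66 to 0.25.

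The sequences shown here are the pieces of promoter that hold the words read by the factors that act on these genes, namely the core of the classical sterol regulatory element, TCACNCCAC, and the CCAAT box bound by NF-Y, which is known to work beside SREBP. Promoters were taken from RefSeq (GRCh38.p14), 250 bases before to 50 after each gene's start, and 27 of the 31 genes were in the table. Both words were searched on both strands and SREBF2, the one promoter that held both, held them apart. The sterol word was in 1 of 27 promoters, that of SREBF2, and in 1.03% of the 13527 promoters of tested genes. Only this exact word was searched, so a promoter without it may still hold a variant or more distant site. CCAAT was in 17 of 27, or 63.0%, against 35.1% of the promoters of tested genes. By role it was in 12 of 16 sterol synthesis promoters, 3 of 6 control promoters and 2 of 5 fatty acid promoters. The capitals mark the words, and ATTGG is CCAAT read on the other strand. The SREBF2 stretch lies at chr22:41832962-41833013 on the plus strand with the sterol word starting 133 bases upstream. The others are INSIG1 at chr7:155297698-155297722 (plus), STARD4 at chr5:111512651-111512706 (minus), HMGCS1 at chr5:43313498-43313577 (minus), MSMO1 at chr4:165327474-165327649 (plus) and SCD at chr10:100346994-100347061 (plus).
SREBF2: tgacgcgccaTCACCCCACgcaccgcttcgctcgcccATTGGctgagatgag
INSIG1: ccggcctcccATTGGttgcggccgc
STARD4: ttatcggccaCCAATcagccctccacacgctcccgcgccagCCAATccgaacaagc
HMGCS1: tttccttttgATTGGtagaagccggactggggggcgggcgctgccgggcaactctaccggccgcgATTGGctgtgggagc
MSMO1: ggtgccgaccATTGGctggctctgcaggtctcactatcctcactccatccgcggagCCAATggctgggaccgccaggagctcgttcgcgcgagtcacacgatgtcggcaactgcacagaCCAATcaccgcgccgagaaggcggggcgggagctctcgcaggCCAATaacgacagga
SCD: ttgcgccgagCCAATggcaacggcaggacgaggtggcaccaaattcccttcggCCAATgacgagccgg

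Between genes, levels in the scrambled libraries are given as RPKM, the CPM divided by the kilobases of exon. SCD, the desaturase that makes oleate, was highest at 99.9 ± 14.0 RPKM (SD, n = 3), above 98.2% of all tested genes. Squalene synthase FDFT1 was next at 77.7 ± 4.19 RPKM, followed by ACLY, which supplies cytosolic acetyl-CoA, at 59.4 ± 5.25 RPKM, INSIG1 at 59.0 ± 6.91 RPKM and HMGCS1, the synthase that feeds the mevalonate pathway, at 54.9 ± 7.56 RPKM. ACLY, INSIG1 and HMGCS1 differed from one another by less than their spread. The lowest tested levels were those of mevalonate kinase MVK at 2.45 ± 0.287 RPKM, the sterol reductase TM7SF2 at 2.60 ± 0.170 RPKM and HSD17B7, a reductase of sterol demethylation, at 2.62 ± 0.487 RPKM, again within their spread of one another. Between paralogs, SREBF2 stood at 24.3 ± 10.2 RPKM and SREBF1 at 3.94 ± 1.67 RPKM, and INSIG1 at 59.0 RPKM and INSIG2 at 3.96 ± 0.802 RPKM.

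CYP51A1, the demethylase that acts on lanosterol, was listed with 2 sense reads in all, 1 each in s46 replicate 1 and scrambled replicate 1. In GENCODE 29, 79.4% of its exon bases are shared with AC000120.2 and AC000120.3 on the same strand, and reads that fall on more than 1 gene are listed apart from the genes. The annotation behind the deposited counts is not given in the sources used here, so the near-empty row cannot be read as a lack of CYP51A1 RNA. Among the tested genes, 37.3% of the exon bases of GGPS1 are shared with TBCE on the same strand.

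**Figure D1:**
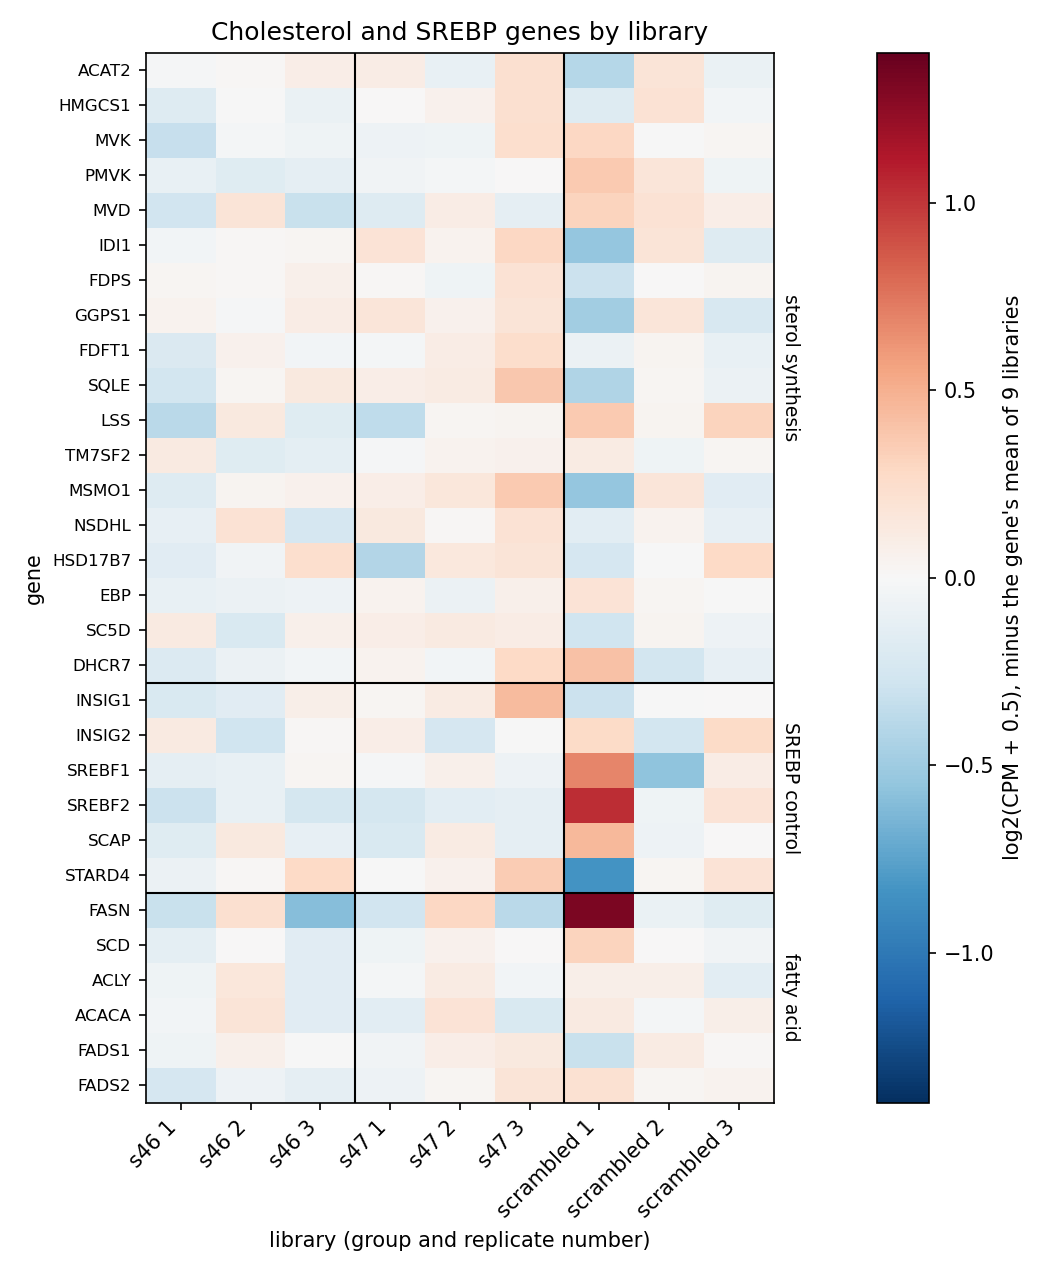
Level of the 30 tested genes (rows, by role) in each of the 9 libraries (columns), as log2(CPM + 0.5) minus the gene's mean over the libraries. Scrambled replicate 1 holds the strongest colours, dark red for SREBF2 and FASN and blue for STARD4 and IDI1, and s47 replicate 3 is mostly red among the sterol synthesis genes.

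The transcription factors and their escort were examined first. SREBF2, which encodes the SREBP that mainly drives cholesterol genes, stood at 108, 123 and 112 CPM in the s46 libraries, 111, 119 and 122 CPM in the s47 libraries and 271, 127 and 152 CPM in the scrambled libraries. All 6 TLX1 siRNA libraries were below all 3 scrambled ones, the only gene of the 30 for which this held in either direction. Across all tested genes, 3.65% were separated in this way with the siRNA libraries lower and 4.47% with them higher. SREBF2 averaged 116 ± 6.43 CPM with TLX1 siRNA (SD, n = 6) and 183 ± 77.1 CPM with scrambled siRNA (SD, n = 3). The log2 fold change of SREBF2 was -0.66 ± 0.185 (SE) for both siRNAs together, with values of -0.68 for s46 and -0.64 for s47, and it missed the threshold (edgeR adjusted p = 0.148). Those values share the scrambled libraries, and scrambled replicate 1 carried most of their size: without it the SREBF2 value was -0.27 ± 0.0971 (SE, edgeR adjusted p = 0.390). The call also depended on the tool and the filter, since the SREBF2 adjusted p was 0.0340 with DESeq2 and 0.000152 with edgeR and no filter on low counts, a fit that called 1.76% of its genes lower.

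SREBF1, which encodes the SREBP isoforms that favour fatty acid genes, stood at 25.9, 26.2 and 28.8 CPM with s46, 27.9, 29.7 and 26.8 CPM with s47, and 45.7, 19.0 and 30.3 CPM with scrambled siRNA. The scrambled libraries held both the highest and the lowest SREBF1 value of the 9. Its log2 fold change was -0.20 ± 0.201 (SE, edgeR adjusted p = 0.608), and 0.16 without scrambled replicate 1. Of its gene reads 8.08% were on the opposite strand, where it overlaps RAI1. SCAP, the escort of the SREBP precursors, stood at 75.5, 93.8 and 78.4 CPM with s46, 73.1, 91.8 and 78.1 CPM with s47, and 117, 80.8 and 85.1 CPM with scrambled siRNA. The second replicate was the highest SCAP library of each TLX1 siRNA, and scrambled replicate 1 was the highest of all 9. The SCAP log2 fold change was -0.20 ± 0.135 (SE, edgeR adjusted p = 0.428), and -0.020 without scrambled replicate 1. In bulk RNA of this kind, fewer cells that express a gene and less RNA per cell cannot be told apart.

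The sterol sensors and the sterol carrier showed no change past the threshold. INSIG1, which retains SCAP and is itself a sensitive SREBP target, stood at 198, 205 and 244 CPM with s46, 234, 248 and 313 CPM with s47 and 186, 229 and 231 CPM with scrambled siRNA. The lowest s47 library, at 234 CPM, lay just above the highest scrambled library, at 231 CPM, while the s46 and scrambled libraries overlapped. How many of all tested genes were so separated between s47 and scrambled was not counted. The log2 fold change of INSIG1 over scrambled was 0.0043 with s46 and 0.30 with s47 (edgeR adjusted p = 0.993 and 0.411). INSIG2, the paralog with the same retaining role, stood at 15.7, 11.8 and 14.5 CPM with s46, 15.4, 12.2 and 14.3 CPM with s47 and 17.5, 11.99 and 17.5 CPM with scrambled siRNA, a log2 fold change of -0.16 ± 0.159 (SE, edgeR adjusted p = 0.599) and -0.074 without scrambled replicate 1. STARD4, a soluble sterol carrier under SREBP control, stood at 84.8, 90.3 and 109 CPM with s46, 89.2, 93.1 and 115 CPM with s47 and 49.9, 91.0 and 103 CPM with scrambled siRNA. Scrambled replicate 1 was the single low STARD4 library, and the log2 fold change of 0.25 ± 0.192 (SE, edgeR adjusted p = 0.487) was 0.0017 without it.

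**Figure D2:**
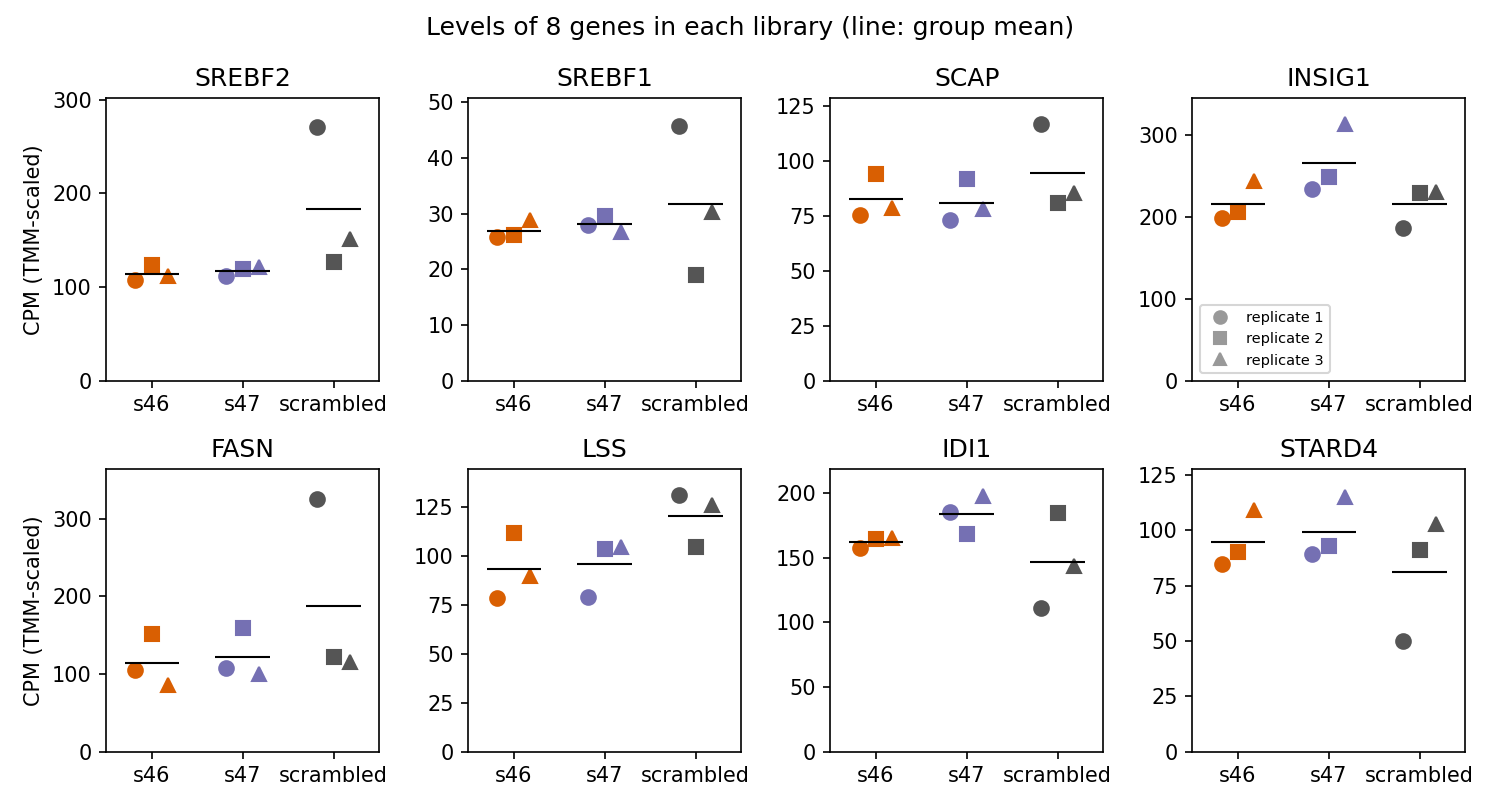
Level in CPM (vertical axes, from 0) of SREBF2, SREBF1, SCAP, INSIG1, FASN, LSS, IDI1 and STARD4 in each library of the s46, s47 and scrambled groups, with replicate numbers as marker shapes and the group mean as a line. The highest scrambled value of SREBF2 (271 CPM) and of FASN (325 CPM) and the lowest of STARD4 (49.9 CPM) and IDI1 (111 CPM) all belong to scrambled replicate 1.

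The sterol synthesis enzymes divided almost evenly about 0. Of the 18 tested, 10 were above 0 and 8 below for both siRNAs against scrambled, with a median log2 fold change of 0.041 (0.018 without scrambled replicate 1) and a range from -0.35 to 0.25. Their summed level was 1592, 1794 and 1759.7 CPM with s46, 1792, 1831 and 2077 CPM with s47 and 1549, 1882 and 1697 CPM with scrambled siRNA, so the scrambled sums lay on both sides of most TLX1 siRNA sums.

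In the mevalonate arm, MVD, the decarboxylase that makes isopentenyl pyrophosphate, stood at 21.9, 30.0 and 21.1 CPM with s46, 23.2, 28.4 and 24.2 CPM with s47 and 32.8, 30.6 and 28.3 CPM with scrambled siRNA. The groups of MVD values overlapped, since the second replicate of each TLX1 siRNA lay within the scrambled range. Its log2 fold change was -0.30 ± 0.135 (SE, edgeR adjusted p = 0.272), and -0.25 without scrambled replicate 1. PMVK, the kinase one step before it, stood at 13.5, 12.9 and 13.3 CPM with s46, 14.0, 14.2 and 14.6 CPM with s47 and 18.9, 16.4 and 13.9 CPM with scrambled siRNA, with a log2 fold change of -0.25 ± 0.127 (SE, edgeR adjusted p = 0.308) and -0.14 without scrambled replicate 1. Scrambled replicate 3 lay among the TLX1 siRNA libraries for PMVK. IDI1, the isomerase that follows, had the opposite sign. IDI1 stood at 157, 164 and 165 CPM with s46, 186, 168 and 198 CPM with s47 and 111, 184 and 143 CPM with scrambled siRNA. The log2 fold change of IDI1 was 0.24 ± 0.138 (SE, edgeR adjusted p = 0.367), and 0.077 without scrambled replicate 1.

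At the branch to geranylgeranyl groups, GGPS1 stood at 49.6, 47.1 and 51.3 CPM with s46, 53.6, 49.8 and 54.3 CPM with s47 and 34.0, 53.7 and 40.9 CPM with scrambled siRNA. Scrambled replicates 1 and 3 were below every TLX1 siRNA library and replicate 2 was within their range, and the log2 fold change was 0.25 ± 0.133 (SE, edgeR adjusted p = 0.333). Without scrambled replicate 2, edgeR called GGPS1 (0.45, adjusted p = 0.0363) and IDI1 (0.44, adjusted p = 0.0398) higher, and SREBF2 lower. That fit called 4.96% of all its genes higher and 5.1% lower, so the members' count is near the background. Without scrambled replicate 1, GGPS1 was at 0.11 and not called. FDPS, which makes farnesyl pyrophosphate, stood at 143 to 149 CPM with s46, 135 to 163 CPM with s47 and 115 to 145 CPM with scrambled siRNA.

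From squalene onwards, SQLE, the epoxidase and a rate-limiting step, stood at 169, 204 and 220.4 CPM with s46, 214, 217 and 261 CPM with s47 and 150.2, 205 and 189 CPM with scrambled siRNA. Its log2 fold change was 0.23 ± 0.130 (SE, edgeR adjusted p = 0.351), and 0.12 without scrambled replicate 1. LSS, the cyclase that makes lanosterol, stood at 78.2, 111 and 89.9 CPM with s46, 79.1, 103 and 104 CPM with s47 and 131, 104 and 126 CPM with scrambled siRNA. Of the TLX1 siRNA libraries, s46 replicate 2 and s47 replicate 3 reached the lowest scrambled value of LSS. The LSS log2 fold change was -0.35 ± 0.135 (SE, edgeR adjusted p = 0.235), and -0.28 without scrambled replicate 1. Without all libraries of replicate number 1, which include the lowest of each TLX1 siRNA for LSS, it was -0.17. MSMO1, the oxidase of sterol demethylation, stood at 89.9, 105 and 106 CPM with s46, 109, 114 and 131 CPM with s47 and 69.8, 115 and 91.6 CPM with scrambled siRNA, with a log2 fold change of 0.24 ± 0.144 (SE, edgeR adjusted p = 0.384) and 0.076 without scrambled replicate 1. SC5D, the desaturase near the end of the pathway, stood at 32.7, 25.6 and 31.5 CPM with s46, 31.9, 32.8 and 32.0 CPM with s47 and 24.6, 30.7 and 28.4 CPM with scrambled siRNA, a log2 fold change of 0.16 ± 0.118 (SE, edgeR adjusted p = 0.490) and 0.074 without scrambled replicate 1. For SC5D, s46 replicate 2 lay within the scrambled range. The other 10 sterol synthesis enzymes, FDPS included, had log2 fold changes between -0.16 (MVK) and 0.14 (ACAT2), with HMGCS1 at 0.0032 and DHCR7, the last reductase of the pathway, at -0.041. Without scrambled replicate 1 these 10 lay between -0.14 (HSD17B7) and 0.19 (DHCR7), and HMGCS1 was at -0.082. For ACAT2, 28.6% of its gene reads were on the opposite strand, where TCP1 and SOD2 overlap it.

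In the fatty acid branch 1 of 6 genes was above 0 and 5 below, with a median log2 fold change of -0.11 (-0.028 without scrambled replicate 1). FASN, the fatty acid synthase, stood at 105, 152 and 86.0 CPM with s46, 108, 159 and 100.5 CPM with s47 and 325, 123 and 116 CPM with scrambled siRNA. Scrambled replicate 1 was the highest FASN library, and scrambled replicates 2 and 3 lay inside the TLX1 siRNA range. FASN and SREBF2 had the greatest log2 fold changes in size of the 30. That of FASN was -0.66 ± 0.341 (SE, edgeR adjusted p = 0.331), and was -0.0076 ± 0.221 (SE) without scrambled replicate 1. SCD stood at 455, 503 and 449 CPM with s46, 480.3, 521 and 503 CPM with s47 and 621, 501 and 484 CPM with scrambled siRNA, with a log2 fold change of -0.14 ± 0.110 (SE, edgeR adjusted p = 0.492), and -0.022 without scrambled replicate 1. FADS1, the delta-5 desaturase of polyunsaturated fatty acids, was at the upper end with 0.080 ± 0.111 (SE, edgeR adjusted p = 0.720), and at -0.035 without scrambled replicate 1. ACLY, ACACA, the carboxylase that makes malonyl-CoA, and FADS2 lay between -0.14 and -0.0053, and between -0.082 and 0.032 without that library.

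**Figure D3:**
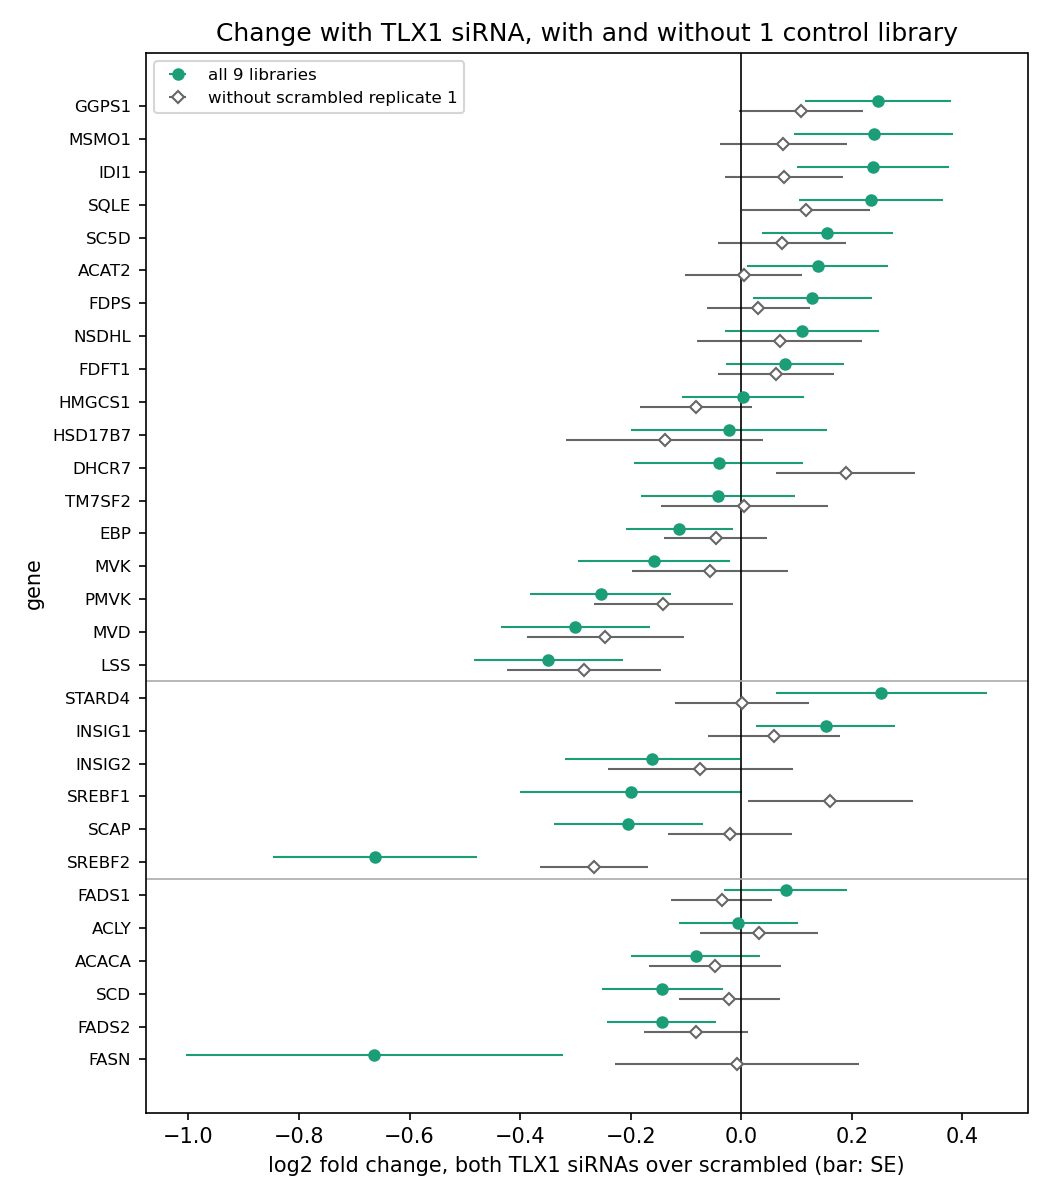
Log2 fold change of both TLX1 siRNAs over scrambled (horizontal axis, bars are SE) for the 30 tested genes, grouped by role, in the fit of all 9 libraries (filled) and without scrambled replicate 1 (open). The open points lie between -0.28 and 0.19, with FASN near 0 and SREBF2 at -0.27.

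Scrambled replicate 1 was the highest of the 9 libraries for 12 of the 30 genes and the lowest for 11, where over all tested genes it was the highest for 31.2% (5014 genes) and the lowest for 4661 of 16072 genes. Among the sterol synthesis enzymes it was the highest for 6 and the lowest for 8 of 18, and among the fatty acid genes the highest for 3 and the lowest for 1 of 6. Without it the median log2 fold change of the 30 genes was -0.0030, against -0.0087 for all genes tested then, 15 genes were above 0 and 15 below, and none was called. The part of its mapping shares in these values was not tested.

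Between the siRNAs the same genes leaned one way, although none was called. With s46 against s47, 26 of the 30 genes were below 0 (17 of 18 sterol synthesis enzymes, 4 of 6 control genes and 5 of 6 fatty acid genes), where 50.4% of all tested genes were above 0. The median log2 difference was -0.094, against 0.00094 over all genes, and the range ran from -0.30 to 0.043. Libraries of s46 and s47 with the same replicate number deviated together from their group means (r = 0.46 to 0.52 across genes, which are not independent replicates). Within numbers, 14 of the 30 genes were lower with s46 in all 3 replicate numbers, beside 14.8% of all tested genes, and 1, SCAP, was higher in all 3, beside 13.5%. The 14 were HMGCS1, PMVK, IDI1, GGPS1, FDFT1, SQLE, MSMO1 and DHCR7 of the sterol enzymes, INSIG1 and STARD4, and FASN, SCD, FADS1 and FADS2. These genes share their libraries, so they are not separate replicates of a difference.

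INSIG1 had the greatest difference of the 30 in the fit of all 9 libraries, -0.30 ± 0.145 on the log2 scale for s46 against s47 (SE, edgeR adjusted p = 1.00). Within replicate numbers 1, 2 and 3 the INSIG1 difference was -0.24, -0.27 and -0.36. With the replicate number as a block it was -0.29 ± 0.1001 (SE, edgeR unadjusted p = 0.016, adjusted p = 1.00). MSMO1 followed at -0.23 ± 0.164, then SQLE at -0.22 ± 0.149, DHCR7 at -0.21 ± 0.176 and HMGCS1 at -0.20 ± 0.128 (SE). The library s47 replicate 3 was the highest of the 9 for 11 of the 30 genes, where over all genes it was the highest for 9.56%. Without that library 24 of 30 genes were below 0 and the median was -0.082. Of all 16412 genes tested then, 8224 were below 0, with a median of -0.00037. By role, 14 of 18 sterol synthesis enzymes, 4 of 6 control genes and 6 of 6 fatty acid genes were below 0. FASN then had the greatest difference at -0.23. INSIG1 stood at -0.16, MSMO1 at -0.15, SQLE at -0.13, DHCR7 at -0.12 and HMGCS1 at -0.13. That fit had no block and kept s46 replicate 3 without its same-numbered partner, so its order of genes may rest on that library. Within replicate numbers 1 and 2 the FASN difference was -0.043 and -0.068, and that of INSIG1 was -0.24 and -0.27.

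**Figure D4:**
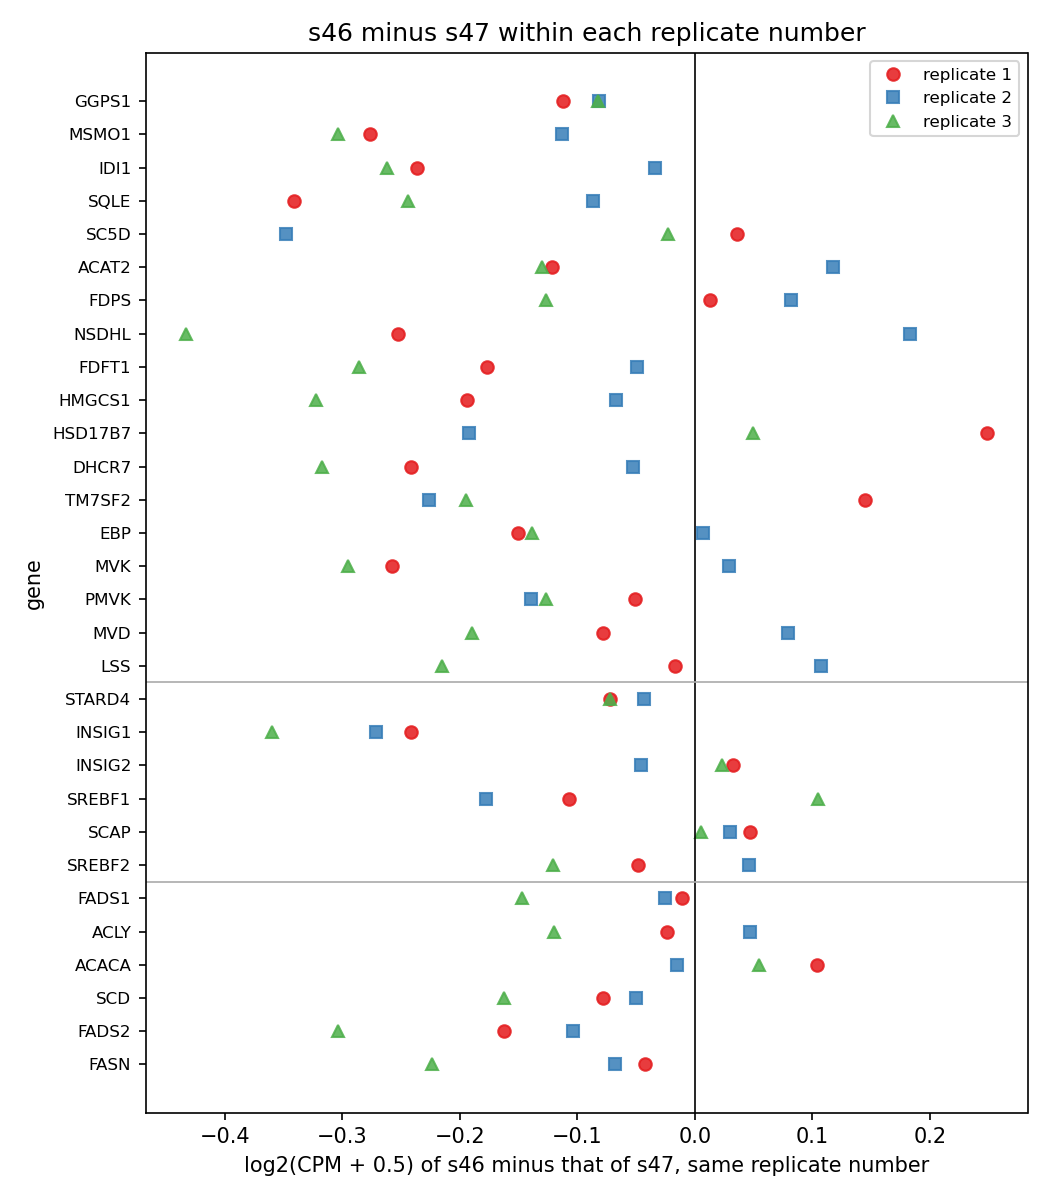
Difference of s46 minus s47 in log2(CPM + 0.5) within each replicate number (horizontal axis, 1 marker per number) for the 30 tested genes, grouped by role. INSIG1 lies at -0.24, -0.27 and -0.36, and 14 genes have all 3 markers left of 0, against 1 gene with all 3 right of it.

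The wider pathway was read from 64 further genes in 6 lists, of which 60 were tested and 2 were called, 1 in each direction, beside 0.411% of all tested genes higher and 0.156% lower. ICMT, the methyltransferase that finishes prenylated proteins, stood at 165, 158 and 159 CPM with s46, 169, 141 and 154 CPM with s47 and 85.3, 99.6 and 90.6 CPM with scrambled siRNA. The ICMT groups did not overlap, and it rose by 0.78 ± 0.102 on the log2 scale (SE, edgeR adjusted p = 0.0061), with 0.80 for s46 and 0.75 for s47. RXRA, the partner receptor of the oxysterol-sensing liver X receptors, stood at 8.46, 12.4 and 9.98 CPM with s46, 7.45, 8.39 and 11.9 CPM with s47 and 24.2, 25.4 and 29.1 CPM with scrambled siRNA. These groups did not overlap either, and RXRA fell by 1.43 on the log2 scale (SE 0.164, edgeR adjusted p = 0.0025).

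The other genes of these lists were not called. At an unadjusted edgeR p under 0.05, 7.27% of all tested genes were higher and 10.5% lower. Among 10 genes of SREBP cleavage and of sterol-regulated degradation, 4 were higher and 1 lower. With ICMT and RXRA included, the counts were 0 and 1 of 12 for sterol transport and 0 and 2 of 8 for liver X receptors. They were 2 and 1 of 12 for isoprenoid branches, 3 and 0 of 14 for fatty acid enzymes and 1 and 1 of 4 for electron transfer with LBR. The ends of the cleavage and degradation list were ERLIN2 at 0.41 ± 0.104 and SYVN1 at -0.67 ± 0.217 (SE, edgeR adjusted p = 0.113 and 0.193). ERLIN2 is part of a complex that degrades sterol-sensing proteins, and SYVN1 is an endoplasmic reticulum ubiquitin ligase. Without scrambled replicate 1, SYVN1 was at -0.23 and ERLIN2 at 0.35. Of the SYVN1 gene reads 22.6% were on the opposite strand. Among 12 genes of sterol transport and storage the ends were LIPA, the lysosomal esterase, at 0.21 and GRAMD1A, a carrier of plasma membrane cholesterol, at -0.28, and 0.080 and -0.11 without scrambled replicate 1. In the list of liver X receptors and efflux, 7 of 8 tested genes were below 0, beside 8597 of all 16072 tested genes. The exporter ABCG1 was above 0 at 0.092 (0.22 without scrambled replicate 1). Of the 7, RXRA alone was called, and NR1H3 was at -0.0011. ABCA1 had 1 to 13 reads per library, and 70.8% of the LPCAT3 gene reads were on the opposite strand. Among 12 isoprenoid branch genes ICMT was the upper end and COQ2, of ubiquinone synthesis, the lower at -0.33. Among 14 tested fatty acid enzymes the ends were ACSL4, an acyl-CoA synthetase, at 0.36 and SLC25A1, the citrate exporter, at -0.24. Among 4 tested genes, POR, CYB5B and CYB5R3 of electron transfer and the sterol reductase LBR, the ends were CYB5B at 0.29 and CYB5R3 at -0.52. Of the CYB5B exon bases, 35.1% are shared with AC026464.2 on the same strand. Without scrambled replicate 1, SLC25A1 was at -0.069 and CYB5R3 at -0.011.

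The 3′ UTRs were searched on the sense strand for GCAGTAC and AATCACT, words that an earlier look at these data had picked for their link to the changes after siRNA. A gene was counted if the 3′ UTR of any of its annotated protein-coding transcripts held the word. A site therefore need not be 3′ UTR in the gene's main transcript, which was not checked. Counted in this way, GCAGTAC was in 2 of the 31 genes (6.45%), MVK and MSMO1, against 5.70% of 11055 tested genes with a UTR. AATCACT was in 4 of 31 (12.9%), CYP51A1, SREBF2, STARD4 and ACACA, against 16.9%. Of the 64 further genes, ICMT, GRAMD1B, VLDLR and PGGT1B held GCAGTAC, and those that held AATCACT are not listed here. Since the word was picked from these data, the call of ICMT is no test of it. A GCAGTAC site of each gene named for that word is shown, with the word in capitals (GENCODE 29 transcripts).
MVK: ccagccccggaGCAGTACctcgtgctgga
MSMO1: ttgattgcagtGCAGTACtggcatttctg
ICMT: ttttataagtaGCAGTACacattcaaagg
GRAMD1B: tggcagagaggGCAGTACtgagtatgtca
VLDLR: tagaaggggatGCAGTACtgtacaaagat
PGGT1B: aacagttagtaGCAGTACtgtaactagag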

How the data were processed

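The authors deposited raw counts of reads per gene for 9 libraries, with columns for unstranded, opposite-strand and sense reads. Libraries were stranded and depleted of ribosomal RNA per the labels' protocols, and per the submitters' processing notes GRCh38 was the build. The sources used here name no aligner and no annotation. The sense column was used, since the opposite-strand column held 5.22% to 6.32% of stranded gene reads. The 4 lines that name no gene were left out of library sizes: unmapped reads were 4.52% to 6.70%, multimapping 6.36% to 14.4%, outside genes 23.8% to 36.8% and ambiguous 2.12% to 4.44%. Names, lengths and UTRs came from GENCODE 29, which matched 57488 identifiers by ID and not 608. Genes were kept by filterByExpr (minimum count 10), scaled by TMM, and edgeR 4.0.16 in R 4.3.3 gave robust quasi-likelihood tests from 1 fit of 9 libraries with group as the only term. Benjamini-Hochberg adjustment ran over 16072 genes, with a threshold of 0.05. The SE came from the F statistic. The procedure was tested on simulated data that had no outlying library and no libraries that deviated together. That test therefore does not show how the calls behave in these data.

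Alternatives were other scalings and filters, unstranded counts, DESeq2 1.42.0, limma-voom (limma 3.58.1), the replicate number as a block, fits restricted to the compared groups, and leaving out libraries. The labels do not state whether replicates are separate cultures. The p-values therefore cover only the spread among these samples, possibly a technical one. Same-numbered libraries deviated together for s46 and s47 (r = 0.46 to 0.52) and for s46 and scrambled (0.20 to 0.42), but for s47 and scrambled r was -0.053 to 0.38. The members, lists and words were chosen with earlier results of these data known. Genes named are TLX1, called members, the 10 members with the largest changes, SREBF1, SREBF2, SCAP, INSIG1, INSIG2, SC5D, the ends of each role, and the called genes and ends of each further list. Further members are named for their level or their difference between the siRNAs, chosen after their values were seen. NR1H3, ABCA1 and LPCAT3 are named as limits on a count in their list, also chosen after their values were seen.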

Additional observations from a re-analysis of the deposited data

How the results depend on the processing

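The count of called members was 0 in all 4 comparisons in the fit of all 9 libraries, and moved under 3 alternatives. It was 1 without a filter on low counts, for both siRNAs, s46 and s47 against scrambled, where 876, 384 and 432 genes of all kinds were called, against 91, 28 and 53 with it. It was 1 with DESeq2 for both siRNAs, with 458 genes called. Each time the gene was SREBF2 (-0.63 and -0.65 for both siRNAs). Leaving out 1 library gave 0 to 3 members for both siRNAs (3 without scrambled replicate 2, SREBF2, IDI1 and GGPS1, with 1650 genes called in all), 0 to 1 for s46 and for s47 against scrambled (1 without scrambled replicate 2, with 225 and 275 genes called), and 0 for s46 against s47. With the replicate number as a block the count stayed at 0 in all 4 comparisons, while over all genes the block raised calls to 222 from 91 for both siRNAs, to 74 from 28 for s46 and to 125 from 53 for s47. Without the number-1 libraries the sign turned for 8 members, FASN (0.064), SREBF1 (0.18), SCAP (0.044), HMGCS1, MVK, DHCR7, SCD and ACLY. Among the called genes and ends of the further lists it turned for CYB5R3 (0.039). The sign also turned for other genes of those lists, such as MBTPS2 (0.053) and FNTA (-0.0072). Without scrambled replicate 1 it turned for 6 members, SREBF1 (0.16, range -0.46 to 0.16 over libraries left out), FADS1 (-0.035, range -0.035 to 0.18), HMGCS1, TM7SF2, DHCR7 and ACLY. The median of the members ranged from -0.060 to -0.000093 over libraries left out. The cause was not tested. The checks of the s46 against s47 median were chosen after seeing the data. The members' median SE was 0.13 on the log2 scale, and SREBF2 at -0.66 was not called.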
